A study of Mus musculus with 10 samples.

Results

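The comparison described here is that of day 1 (d1) with day 2 (d2) epiblast-like cells (EpiLC), made from mouse embryonic stem cells (ESC) and profiled by droplet-based single-cell RNA-seq. Cells were taken by the suffix of their barcode, which gave 280 d1 cells and 289 d2 cells, together 569 of the 2782 cells in the table of the E14Tg2a line and of the 5897 cells in the series. The study followed ESC through EpiLC to primordial germ cell-like cells (PGCLC), which arise in embryoid bodies, and asked which features of d2 EpiLC make them competent for the germline. Every stage had 1 library. E14Tg2a is an established mouse ESC line, male per the study's methods, and all libraries used here were wild type.

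ESC had been adapted to medium with LIF and 2 inhibitors, of MEK and of GSK3β (2i ESC), and were then moved to fibronectin in N2B27 medium with Activin A, bFGF and knockout serum replacement (KSR), where they spent 1 day (d1 EpiLC) or 2 days (d2 EpiLC). The libraries of 2i ESC (227 cells), of d3 EpiLC (399 cells) and of epiblast stem cells (EpiSC, 373 cells), which had been passaged in Activin A and bFGF, served only to place the d1 and d2 values. Because d1 and d2 were 1 library each, the stage and the library cannot be told apart, no test between them was made, and the intervals given below are 95% intervals for counting error only.

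Pluripotent cells of the mouse pass through a naive state, which matches the epiblast before implantation and rests on factors such as Esrrb, Klf2, Tfcp2l1 and Zfp42 under LIF, and through a formative state after implantation. In the formative state Pou5f1 (Oct4) is kept, the naive factors are shut off, and Otx2, Pou3f1 (Oct6), Fgf5 and the de novo DNA methyltransferases Dnmt3a and Dnmt3b are on. Formative cells can answer germ cell inducing signals, and EpiLC are their usual culture model, whereas EpiSC stand for the later, primed epiblast.

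Depth was alike in both libraries. Levels are given as CPM, the UMIs of a gene per 1000000 UMIs of its library. The d1 library held 10997941 UMIs (unique molecular identifiers) with a median of 36750 per cell, and the d2 library 11155833 with a median of 35956, against 33971 in 2i ESC, 31893 in d3 EpiLC and 31587 in EpiSC. A count of 0 allowed a level of up to 0.273 CPM in d1 and 0.269 CPM in d2, taken as 3 counts of the total. The d1 and d2 libraries shared 0 cell barcodes, and a doublet caller marked 17 d1 cells (6.07%) and 18 d2 cells (6.23%), which were kept unless stated.

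The short sets of defining markers of other cell types had low sums in both libraries. The summed level of 6 primitive streak markers was 4.18 CPM in d1 and 4.39 CPM in d2, against 197 CPM in EpiSC. That of 7 primitive endoderm markers was 3.18 and 4.66 CPM, that of 4 neural markers 1.27 and 1.17 CPM, and that of 7 mesoderm markers 2.00 and 1.43 CPM. For 8 trophoblast and extraembryonic ectoderm markers the sums were 8.37 and 6.01 CPM. At least 3 trophoblast markers were found in 1 d1 cell and 1 d2 cell, and at least 3 streak, neural, endoderm or mesoderm markers in 0 cells of either library. Wider lists had higher sums: 134 and 80.1 CPM in d1 and d2 for 14 primitive endoderm genes, 100.4 and 68.5 CPM for 14 mesoderm genes, 27.7 and 119.8 CPM for 18 primitive streak and primed genes, 12.5 and 10.5 CPM for 12 trophoblast genes and 14.6 and 44.2 CPM for 10 neural genes. Most of the endoderm sum was *Sparc* (112 and 57.4 CPM), most of the mesoderm sum *Mest* (91.0 and 62.9 CPM), and most of the streak sum in d2 *Krt18* and *Fgf8*. In the neural list both genes with at least 50 UMIs were more than 2-fold higher in d2. *Nes*, an intermediate filament gene, went from 1.82 to 10.6 CPM and *Tubb3*, a β-tubulin gene, from 11.0 to 32.4 CPM, after 2.17 and 28.1 CPM in 2i ESC. The part of other cell types in the differences below was not tested. The 9 formative markers were present in both: at least 3 of them had a UMI in 273 of 280 d1 cells and in 287 of 289 d2 cells, so the markers of the formative state were on at d1 already, and the name of a state gained from d1 to d2 is not borne out by them.

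Between the 2 days, more genes went up than down. Of 10216 genes with at least 50 UMIs over both libraries, 967 (9.47%) were at least 2-fold higher in d2 and 610 (5.97%) at least 2-fold lower, after 1 CPM had been added to each value. A gene past this rule of size is said below to have risen or fallen. The counts of each list below are to be read beside these shares of all genes. The median log2 ratio of all these genes was 0.09, and the central 90% of them lay between -1.09 and 1.37. At least 4-fold differences were as many upward (168 genes) as downward (167), but at least 8-fold differences were mostly falls, with 45 falls and 14 rises. TMM scaling, in place of the total, moved the median of all genes to -0.01 and gave 819 rises and 735 falls, and the log2 ratios below are on the scale of the totals.

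**Figure D1:**
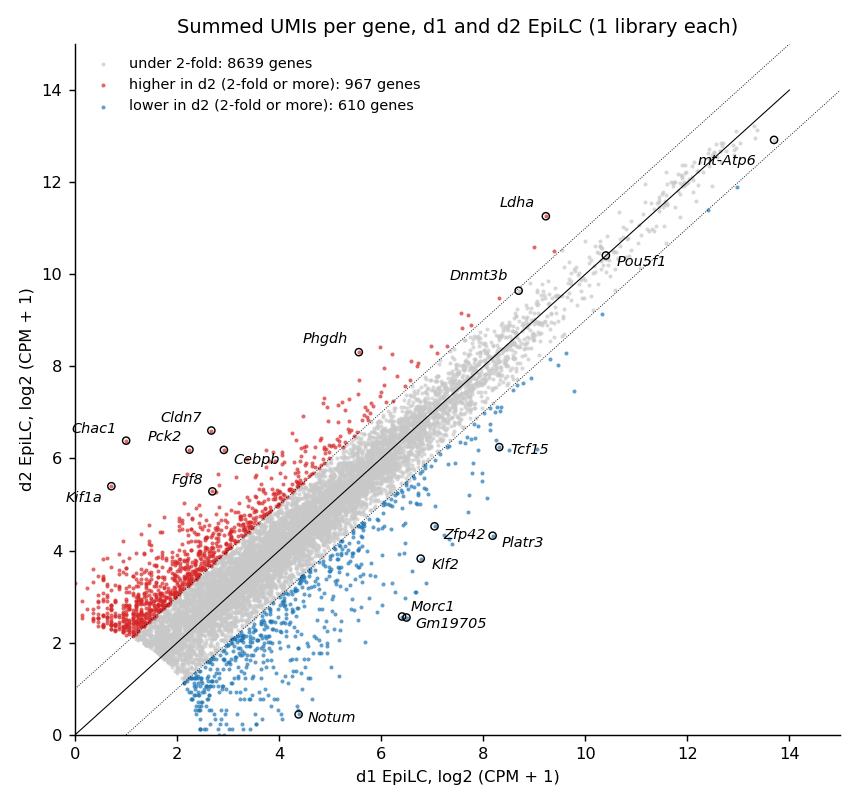
Level of each of 10216 genes in d1 EpiLC (horizontal axis) and d2 EpiLC (vertical axis), both as log2 of CPM plus 1 from the summed UMIs of 1 library each. The dotted lines mark the 2-fold rule, the 967 red genes lie above it and the 610 blue genes below it, and circles mark named genes.

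The naive pluripotency factors fell almost as a group. Of 17 listed factors 14 had enough UMIs, 11 of these fell and 0 rose, with a median log2 ratio of -2.04. Their summed level was 2546 CPM in 2i ESC, 732 in d1, 199 in d2 and 226 in d3, and the d2 level was 0.271 of that in d1 (95% interval 0.259 to 0.284). The naive list was thus lower in d2 than in d1 but not absent. A shorter set of 11 naive markers, without *Mybl2*, summed to 1931 CPM in 2i ESC, 368 in d1, 82.9 in d2 and 153 in d3. At least 3 of these 11 markers had a UMI in 235 of 280 d1 cells and in 93 of 289 d2 cells.

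The plot of levels in both libraries marks the larger falls and rises. *Zfp42* (Rex1), a zinc finger factor used as a reporter of the naive state, went from 131 CPM in d1 to 22.1 in d2, 5.94-fold lower (5.19 to 6.83), after 464 CPM in 2i ESC. It had a UMI in 86.4% of d1 cells and 49.8% of d2 cells, against 3.75% in EpiSC, where it is off, and at 1 depth of 23341 UMIs per cell the shares were 82.1%, 33.8% and 2.31%. *Klf2*, a Krüppel-like factor held up by MEK inhibition in 2i medium, stood at 108 CPM in d1 and 13.2 in d2, 8.23-fold lower (6.92 to 9.83), but was back at 55.5 CPM in d3 EpiLC. *Nr0b1* (Dax1), an orphan nuclear receptor that binds Oct4, had kept its 2i level at d1 (62.5 CPM in 2i ESC, 59.6 in d1) and was at 5.38 CPM in d2. The AKT coactivator *Tcl1* went from 13.3 to 0.538 CPM, and the factors *Esrrb* from 11.9 to 1.97, *Tfcp2l1* from 7.91 to 0.896 and *Tbx3* from 7.46 to 1.17 CPM. These 3 factors were already far below their 2i ESC levels of 60.5, 125 and 145 CPM at d1.

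*Mybl2*, which drives cell cycle genes, and *Zfp57*, which guards imprints, fell to 96.6 and 9.95 CPM from 279 and 46.7. *Mybl2* was thus a large part of the naive list's sums of 732 CPM in d1 and 199 in d2. *Gbx2*, a STAT3 target, was higher in d1 (18.0 CPM) than in 2i ESC (6.39) or d2 (5.38). The members that did not fall were *Klf4* (log2 ratio -0.80), *Klf5* (-0.38) and *Nanog* (0.83). *Nanog*, the homeobox factor of the naive and again of the primed epiblast, was the one member with enough UMIs whose level was higher in d2, at 10.2 CPM in d1, 18.8 in d2, 41.9 in d3 and 44.5 in EpiSC, after 116 in 2i ESC. The cells of d1 therefore stood near the low point of *Nanog*.

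Surface and metabolic genes of the naive state went the same way, with 12 of 16 falling and 0 rising (median log2 ratio -1.39). *Tdh*, the threonine dehydrogenase that feeds one-carbon units to mouse ESC, was at 495 CPM in 2i ESC, 362 in d1 and 72.2 in d2, 5.02-fold lower in d2 (4.65 to 5.42). *Morc1*, which represses transposons in the male germline, fell 17.0-fold from 83.9 to 4.93 CPM, and *Mylpf*, a myosin light chain gene, 12.9-fold from 87.7 to 6.81 CPM. *Spp1*, encoding osteopontin, went from 53.4 to 6.81 CPM, and *Jam2*, a junctional adhesion molecule, from 107 UMIs to 1, a fold of 109 with a wide interval (19.07 to 4326). *Fgf4*, the FGF that ESC make themselves, was at 75.9 and 32.8 CPM, and *Gdf3*, a TGFβ family ligand, at 88.5 and 41.8 CPM.

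The general pluripotency factors stayed closer to their d1 levels, with 2 of 12 falling and 0 rising. *Pou5f1* stood at 1353 CPM in d1 and 1357 in d2, a ratio of 1.0 (0.981 to 1.03). *Sall4* was at 71.9 and 73.7 CPM and *Lin28a*, which blocks let-7 maturation, at 108 and 88.3 CPM. The 2 that fell were *Sox2*, the partner of Oct4, at 158 and 58.1 CPM (2.73-fold lower, 2.49 to 2.99), and *Dppa2*, a SAP domain factor of early embryos, at 103 and 31.3 CPM. *Dppa4*, the partner of Dppa2, had a log2 ratio of -0.95, just short of the rule. *Utf1*, a chromatin-bound factor of pluripotent cells, was at 192 CPM in 2i ESC, 912 in d1 and 646 in d2.

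The formative factors had a summed level of 759 CPM in 2i ESC, 2539 in d1, 2624 in d2 and 1567 in d3. The sum in d2 was 1.03 times that in d1 (1.02 to 1.05), and below it, at 0.954 times, under TMM scaling. Of 24 factors 2 (8.33%) rose and 4 (16.7%) fell, beside 9.47% and 5.97% of all genes, and the median log2 ratio was -0.28. The sum and the median differed in sign, and the member with the most UMIs was among those with a higher level in d2.

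That member was *Dnmt3b*, the de novo methyltransferase of the epiblast, at 34.9 CPM in 2i ESC, 413 in d1, 798.4 in d2 and 305 in d3. Its log2 ratio of 0.95 was just inside the limit of 1, with a ratio of 1.93 (1.87 to 2.00). *Sox11*, an SRY-box factor of neural and epiblast cells, rose from 34.8 to 77.4 CPM, and *Lin28b* from 5.0 to 11.9 CPM. *Fgf5*, the classic marker of the post-implantation epiblast, was at 0.228 CPM in 2i ESC, 46.3 in d1, 72.6 in d2 and 96.1 in d3, a ratio of 1.57 from d1 to d2 (1.40 to 1.76). It had a UMI in 63.6% of d1 cells and 84.1% of d2 cells (53.2% and 70.3% at 1 depth), against 0.881% of 2i ESC.

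The 4 formative genes that fell were *Tcf15*, *Dnmt3l*, *Grhl2* and *Cdh2*, and all 4 were higher in d1 than in 2i ESC. *Tcf15*, a basic helix-loop-helix factor that primes ESC for differentiation, was at 46.5 CPM in 2i ESC, 317 in d1, 74.9 in d2 and 17.3 in d3, 4.23-fold lower in d2 than in d1 (3.92 to 4.57). *Dnmt3l*, the cofactor of the de novo methyltransferases, went from 107 to 31.2 CPM after 35.1 in 2i ESC, and had a UMI in 90.4% of d1, 55.7% of d2 (83.3% and 44.4% at 1 depth) and 0.268% of EpiSC cells. *Grhl2*, which opens epithelial enhancers, was at 21.1 and 9.95 CPM, and *Cdh2* (N-cadherin) at 7.46 and 2.96 CPM. Members below the 2-fold rule went both ways. Lower in d2 were *Otx2* at 121 and 87.2 CPM, *Pou3f1* at 302 and 257, *Dnmt3a* at 174 and 132 and *Foxd3* at 43.4 and 25.2 CPM. Higher in d2 were *Sox3*, *Pim2* and *Zic2*, with log2 ratios of 0.84, 0.73 and 0.57. The shorter set of 9 formative markers summed to 1218 CPM in d1 and 1472 in d2. *Pou3f1* had been at 1.03 CPM in 2i ESC and *Dnmt3a* at 4.45, so their rise lay before d1.

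**Figure D2:**
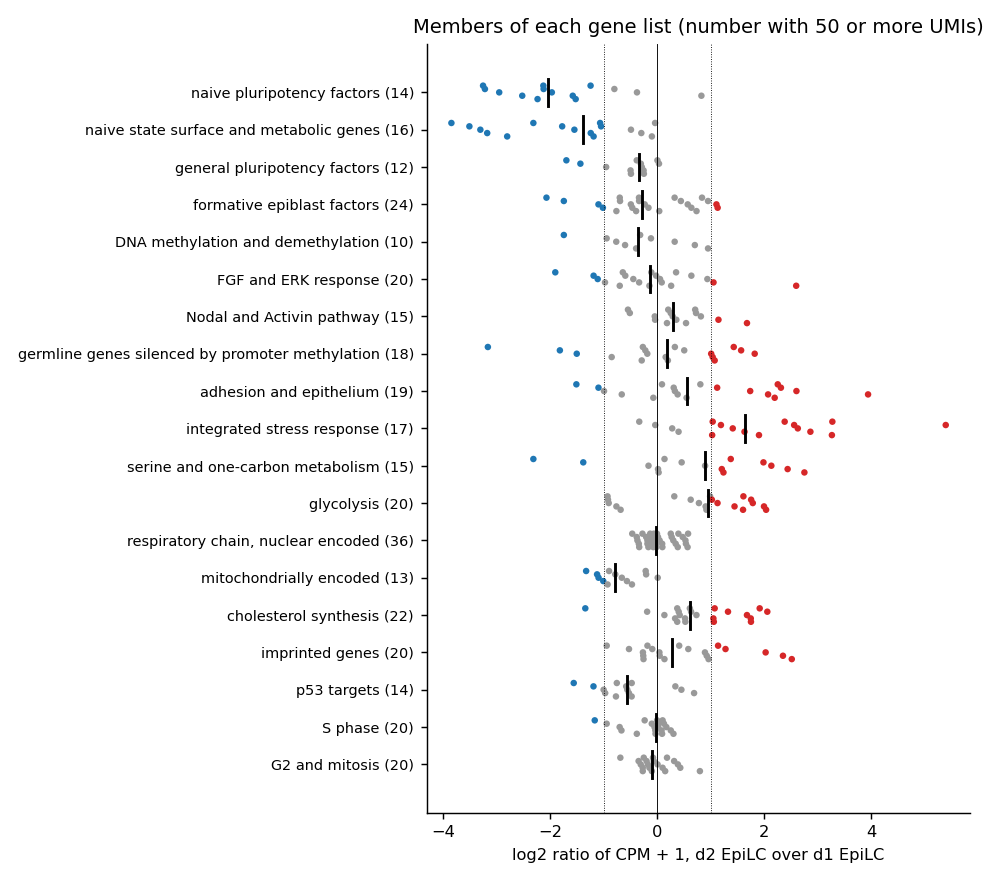
Log2 ratio of CPM plus 1, d2 over d1 EpiLC, for each member with at least 50 UMIs of 19 gene lists (1 point a gene, number of members in brackets, black bar the median). Red and blue points are past the 2-fold rule (dotted lines): 11 of 14 naive factors lie left of it and 13 of 17 integrated stress response genes right of it.

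Cell by cell, naive and formative genes were not on opposite sides of a gap. The naive list took a median of 0.255% of a cell's UMIs in 2i ESC, 0.0678% in d1 (quartiles 0.0483 and 0.0962%) and 0.0177% in d2 (0.0125 and 0.0240%). *Mybl2*, a large part of the list's sum in d1 and d2, is counted in these shares. Of the d1 cells 275 of 280 lay above the median d2 cell, but only 12 (4.29%, 2.23 to 7.37%) above every d2 cell. The top d2 cell stood apart from the rest of its library, and 43.9% of d1 cells were above the 99th percentile of d2. Reaching back to the start, 22 d1 cells (7.86%) and 1 d2 cell were at or above the lowest 2i ESC.

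For the formative list the 2 libraries overlapped nearly in full, with medians of 0.252% in d1 and 0.260% in d2 against 0.0724% in 2i ESC. The lower end differed: the lowest d1 cell had 0.0235% and the lowest d2 cell 0.0952%, and 12 d1 cells lay below every d2 cell. The spread over cells (SD) was 0.0780% in d1 and 0.0624% in d2. Within d1, cells with more naive UMIs had somewhat fewer formative ones (Spearman's rho -0.20 over 252 cells at 1 depth), and in d2 rho was -0.02 over 266 cells. These cells share a library, both shares are parts of 1 fixed total, and the naive list had a median of only 4 UMIs per d2 cell at that depth.

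**Figure D3:**
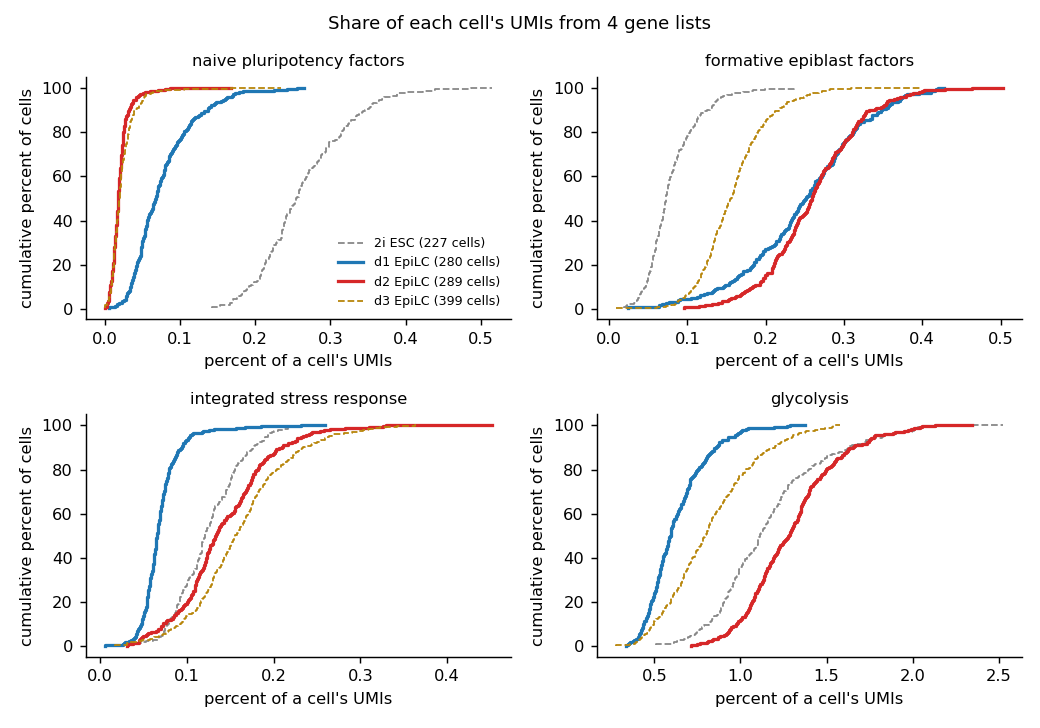
Cumulative percent of cells (vertical axes) against the percent of a cell's UMIs that fall on 4 gene lists (horizontal axes) in 2i ESC, d1, d2 and d3 EpiLC. The d1 curve lies between 2i ESC and d2 for the naive list, close to d2 for the formative list except at its lower end, and mostly left of all other stages for the integrated stress response and glycolysis lists.

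The study had defined ESC, EpiLC and EpiSC gene sets by comparing these stages with each other, with d2 EpiLC among them, so that their direction is no independent evidence, and a PGCLC set on clusters of embryoid body cells. The d1 library was used for none of them. Of 431 ESC genes tested 194 fell and 14 rose (median log2 ratio -0.89), and their sum went from 9651 to 3921 CPM. Of 389 EpiLC genes 163 rose and 12 fell (median 0.75), while their summed level was already at 9153 CPM in d1 against 10316 in d2 and 7456 in 2i ESC. Of 470 EpiSC genes 123 rose and 27 fell. The PGCLC genes, which mark PGCLC within embryoid bodies, had 98 falls and 36 rises among 373, and a sum of 16523 CPM in 2i ESC, 16266 in d1 and 10399.7 in d2. In sum, the PGCLC genes were at 98.4% of their 2i ESC level at d1 and at 62.9% at d2. This sum does not show single members, which moved in both directions. In d1, 25 of them were at least 2-fold above both 2i ESC and d2, and 9 at least 2-fold below both. *Esrrb*, which the study counts among the PGCLC genes, was already far below its 2i ESC level at d1.

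**Figure D4:**
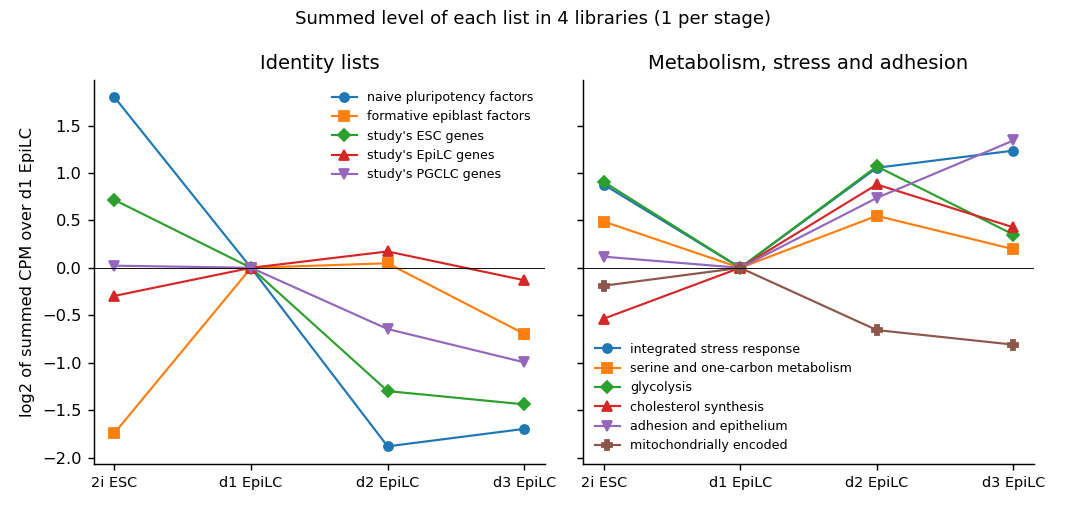
Log2 of the summed CPM of each list over its value in d1 EpiLC (vertical axis), in 2i ESC and d1, d2 and d3 EpiLC (horizontal axis, 1 library a stage). The naive factors drop in 2 steps and the formative factors differ by a ratio of 1.03 from d1 to d2 (0.954 under TMM scaling), whereas the integrated stress response, serine and glycolysis lists have their lowest value at d1.

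Of 10 genes of DNA methylation and demethylation tested, 0 rose and 1, *Dnmt3l*, fell, with a sum of 1523 CPM in d1 and 1518 in d2. *Uhrf1*, which recruits the maintenance enzyme, was at 195 and 101 CPM, *Dnmt1* itself at 64.5 and 59.4 CPM, and the 5-methylcytosine oxidase *Tet1* at 88.7 and 51.8 CPM. *Tet2* went from 31 UMIs to 8 and *Tet3* from 23 to 45. Of these 5 genes, *Tet2* had fewer than 50 UMIs and the others were not past the rule.

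The enzymes that write and erase histone methylation, which the study followed at enhancers, stayed below the rule in all 14 members tested, with a median log2 ratio of -0.39. *Kmt2c* and *Kmt2d*, which place H3K4me1 at enhancers, were at 13.8 and 9.91 CPM in d1 and at 9.95 and 10.2 CPM in d2. *Kdm1a*, which removes this mark, was at 95.6 and 96.1 CPM and *Kdm5b*, which removes H3K4me3, at 173 and 131 CPM. Of the Polycomb genes, *Ezh2*, the H3K27 methyltransferase, was at 148 and 134 CPM. Its partners *Jarid2* and *Mtf2*, which help it find CpG islands, came nearest to the limit, at 162 and 83.1 and at 232 and 117 CPM (log2 ratios -0.95 and -0.99).

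Germline genes that promoter methylation keeps silent in somatic cells went both ways: of 18 tested, 6 rose and 3 fell. The largest fall was *Rpl10l*, an autosomal copy of the X-linked ribosomal protein gene *Rpl10* that serves in spermatocytes, at 26.7 CPM in 2i ESC, 76.0 in d1, 7.62 in d2 and 2.34 in d3. The values are uncertain, since reads of near-identical copies may be split by the counting, which was not tested. In EpiSC *Rpl10l* had 0 UMIs and *Rpl10* was at 3264 CPM. *Hormad1*, a protein of the meiotic chromosome axis, went from 15.5 to 3.68 CPM. In the other direction, *Sycp3*, of the synaptonemal complex, rose from 27.4 to 57.2 CPM, the RNA helicase gene *Ddx4* (Vasa) from 2.00 to 7.08, *Taf7l*, a germ cell TFIID subunit, from 1.45 to 6.27, and *Mael*, of the piRNA pathway, from 15.0 to 31.2 CPM. *Tdrkh* and *Zcwpw1* rose as well (log2 ratios 1.82 and 1.07). Under TMM scaling *Sycp3*, *Mael* and *Zcwpw1* were no longer past the rule. *Dazl* was at 7.37 and 6.36 CPM. In EpiSC, *Ddx4*, *Mael* and *Hormad1* had 0 UMIs.

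The repressors of such genes were present at both days, with 0 rises and 0 falls among 12. They include *Mga* (65.8 and 61.5 CPM) and *Max* (72.8 and 44.9 CPM), whose dimer binds the E-box CACGTG, and *E2f6* (13.7 and 19 CPM). The E-box was found within 250 bases before the start in 12 of 25 promoters of the list (48%) and in 6.05% of all 27025 promoters of the RefSeq table (GRCm38.p6). Among the 8072 tested genes found there the share was 8.89%. Of the listed genes that fell, it was found in *Hormad1* alone, and of those that rose in *Ddx4*, *Mael*, *Sycp3* and *Taf7l*. It was also found in *Slc25a31*, *Stag3*, *Stk31* and *Sycp1*, which were not past the rule. The remaining carriers, *Brdt*, *Mov10l1* and *Tdrd1*, had too few UMIs. The E-box is shown in capitals in 60-base windows of *Hormad1*, *Sycp3* and *Taf7l*, each 5′ to 3′ on the strand of its gene.
*Hormad1* (chr3:95559617-95559676, + strand): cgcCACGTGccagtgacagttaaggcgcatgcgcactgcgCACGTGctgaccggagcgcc
*Sycp3* (chr10:88459518-88459577, + strand): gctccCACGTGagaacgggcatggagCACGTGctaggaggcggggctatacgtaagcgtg
*Taf7l* (chrX:134476506-134476565, - strand): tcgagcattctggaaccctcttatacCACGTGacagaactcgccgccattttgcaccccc
A match of these letters is a description and no proof of binding.

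Signalling genes are given beside shares of 9.47% and 5.97% of all genes that rose and fell. In the FGF and ERK list 2 of 20 rose and 3 fell. *Fgf8*, an FGF of the epiblast and primitive streak, had 0.228 CPM in 2i ESC, 5.46 in d1, 38.0 in d2, 13.1 in d3 and 222 in EpiSC, and had a UMI in 17.1% of d1 and 51.9% of d2 cells (10.7% and 42.1% at 1 depth) against 0.881% of 2i ESC. *Spry1*, a feedback inhibitor of FGF signals, rose from 12.4 to 26.7 CPM, whereas the receptor *Fgfr2* fell from 8.09 to 1.43 CPM and the ERK target *Egr1* from 48.6 to 22.0 CPM. In the Nodal and Activin list, *Lefty1*, a secreted Nodal inhibitor that Nodal itself turns on, rose from 216 to 479 CPM, and the list had 2 rises and 0 falls among 15. In the list of the BMP pathway, which carries the germ cell inducing signal, the receptor *Bmpr2* rose from 2.09 to 5.38 CPM and the signal transducer *Smad1* from 7.82 to 16.9 CPM, among 9 tested, and neither was past the rule under TMM scaling. The LIF and STAT3 list had 3 falls and 0 rises among 11. Of these, *Lifr*, the receptor of LIF, went from 11.5 to 1.70 CPM.

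Of 12 WNT targets 2 rose and 1 fell. *Notum*, a secreted enzyme that removes the lipid from WNT proteins, was the list's fall, at 19 CPM in 2i ESC, 19.8 in d1 and 0.359 in d2, 55.3-fold lower (21.3 to 205). *Nkd1*, an intracellular inhibitor, rose from 10 to 58 UMIs, and the ligand *Wnt3* from 12 to 49. With *Fgf8* and *Krt18*, *Wnt3* made up the 3 rises among the 4 primitive streak and primed genes that had enough UMIs. The streak factors *T*, *Mixl1* and *Gsc* had 1, 3 and 4 UMIs in all d2 cells together, and *Eomes* stood at 3.46 and 3.41 CPM. Among PGC factors, *Ifitm1* and *Ifitm3*, membrane proteins of early germ cells, fell from 131 to 30.3 and from 257 to 126 CPM. *Prdm1* was at 3.82 and 4.66 CPM, while *Prdm14* had 4 UMIs in d1 and 0 in d2, and *Tfap2c* 16 and 1.

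The integrated stress response rose in most of its members. It is the program in which the factor ATF4 turns on amino acid supply and stress genes when translation is restrained. Of 17 genes 13 rose and 0 fell, with a median log2 ratio of 1.63 against 0.09 for all genes. Their sum was 1243 CPM in 2i ESC, 676 in d1, 1405 in d2 and 1593 in d3, a ratio of 2.08 (2.02 to 2.14). The d1 library was thus the low point of the list, and 7 of its genes were at least 2-fold lower in d1 than in both 2i ESC and d2. The 4 members not past the rule were *Hspa5*, *Sesn2*, *Atf5* and *Slc3a2*, with log2 ratios of -0.33, -0.04, 0.28 and 0.40.

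*Chac1*, which breaks down glutathione and is a target of ATF4, had the largest rise of all genes with at least 200 UMIs. It stood at 17.5 CPM in 2i ESC, 1.0 in d1 (11 UMIs), 82.6 in d2 (922 UMIs) and 53.3 in d3, 82.6-fold higher in d2 than in d1 (46.0 to 166). It had a UMI in 3.93% of d1 cells and 75.1% of d2 cells (1.19% and 70.7% at 1 depth), and the d1 share is the lowest of the 5 libraries, none of which is known to lack the gene. *Cebpb*, a leucine zipper factor, rose 11.0-fold from 6.55 to 71.8 CPM, *Nupr1*, a stress-induced chromatin protein, 8.30-fold from 6.00 to 49.8, and *Trib3*, a pseudokinase that damps the response, 6.73-fold from 9.27 to 62.4 CPM. *Ddit3* (CHOP), *Herpud1* of endoplasmic reticulum protein disposal, and *Asns*, the asparagine synthetase, went from 3.91 to 24.6, 4.36 to 30.6 and 54.6 to 147 CPM. *Vldlr* had 3 UMIs in d1 and 125 in d2, a ratio of 41.1 (13.7 to 202). *Atf4* mRNA itself rose from 136 to 311 CPM, a log2 ratio of 1.19 and thus below the median of the list.

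ATF4 binds with C/EBP factors to the response element TGATGNAA. On either strand, these letters were within 250 bases before the start of 5 of 16 integrated stress response genes (31.2%), against 3.53% of all 27025 promoters of the RefSeq table, 1.83% of the 8072 tested genes found there, 2.89% of the genes that rose and 2.60% of those that fell. The same letters were found in 0 of 13 serine and one-carbon promoters and in 1 of 14 cholesterol synthesis promoters. The stress response list was chosen as genes of the ATF4 program, so its share is no independent evidence. All 5 stress response genes with the letters rose. Their windows of 60 bases (GRCm38.p6, 5′ to 3′ on the strand of the gene) are shown because they carry the element, in capitals.
*Chac1* (chr2:119351023-119351082, + strand): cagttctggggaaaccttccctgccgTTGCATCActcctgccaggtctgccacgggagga
*Nupr1* (chr7:126625547-126625606, - strand): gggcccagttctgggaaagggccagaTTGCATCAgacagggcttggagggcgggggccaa
*Herpud1* (chr8:94386291-94386350, + strand): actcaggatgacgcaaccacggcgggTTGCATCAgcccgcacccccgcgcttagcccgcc
*Slc7a11* (chr3:50443627-50443686, - strand): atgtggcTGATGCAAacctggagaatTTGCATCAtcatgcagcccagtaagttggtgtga
*Asns* (chr6:7693210-7693269, - strand): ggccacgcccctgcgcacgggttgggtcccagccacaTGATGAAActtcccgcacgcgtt
The letters start 193 bases before the start site in *Chac1*, 110 in *Nupr1*, 112 in *Herpud1*, 47 for the nearer of the 2 matches in *Slc7a11* and 23 in *Asns*. In all but *Asns* the element nearest the start lay on the strand opposite to the gene, so that its reverse complement, TTGCATCA, is read in the window. The match is a description of the letters only, and its part in the rises was not tested.

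Genes of serine and one-carbon metabolism rose beside it, 7 of 15, with 2 falls. The 3 enzymes that make serine from a glycolytic intermediate were at 46.2 and 316 CPM (*Phgdh*), 62.3 and 341 CPM (*Psat1*) and 36.6 and 148 CPM (*Psph*), ratios of 6.84, 5.48 and 4.04. The mitochondrial folate enzymes *Mthfd2* and *Shmt2* rose from 46.6 to 207 and from 41.5 to 97.0 CPM. *Pck2*, the mitochondrial phosphoenolpyruvate carboxykinase, showed the third largest rise, at 43.5 CPM in 2i ESC, 3.73 in d1, 72.1 in d2 and 73.6 in d3. The 2 falls were *Tdh*, given above, and *Mat2a*, which makes S-adenosylmethionine, at 85.0 CPM in 2i ESC, 281 in d1 and 107 in d2. Within d2, cells with more stress response UMIs had more serine pathway UMIs (rho 0.47 over 266 cells at 1 depth), and within d1 rho was 0.10 over 252 cells. The list's median count was 15 UMIs per d1 cell and 32 per d2 cell at that depth.

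Of the 12 lists scored cell by cell, glycolysis left the most d1 cells outside the range of d2. Its sum was 11437 CPM in 2i ESC, 6100.3 in d1, 12800 in d2 and 7779 in d3, a ratio of 2.1 (2.08 to 2.12), and 9 of 20 genes rose with 0 falls. The list took a median of 0.595% of UMIs in d1 cells (range 0.334 to 1.37%) and 1.28% in d2 cells (0.710 to 2.35%). Of 280 d1 cells 211 lay below the lowest d2 cell, and all 289 d2 cells lay above the median d1 cell. *Ldha*, the lactate dehydrogenase subunit, had the largest rise in CPM of any gene, from 598 to 2450.4 CPM (4.1-fold, 3.99 to 4.21), after 1216 in 2i ESC and before 1093 in d3. *Aldoa*, *Pkm* and *Tpi1* rose from 506 to 1546, 668 to 1461 and 187 to 571 CPM. *Pfkl*, the liver form of phosphofructokinase, rose 4.07-fold, while *Pfkp*, the platelet form, had a log2 ratio of -0.93. The glucose transporters *Slc2a1* and *Slc2a3* went from 40.3 to 111 and from 21.5 to 74.8 CPM. The hexokinases did not follow: *Hk1* and *Hk2* had log2 ratios of -0.92 and -0.90.

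RNA of the mitochondrial genome moved the other way. All 13 protein-coding mitochondrial genes together had 52863 CPM in d1 and 33540.2 in d2, a ratio of 0.634 (0.632 to 0.637), with 4 falls and 0 rises. They were also 46379 CPM in 2i ESC and 30158 in d3, and the share of mitochondrial UMIs is in common use as a sign of cell quality. The median share per cell was 5.03% in d1 and 3.17% in d2. *mt-Atp6*, *mt-Nd1* and *mt-Cytb* were the 3 largest falls in CPM of any genes, from 13295 to 7734, 8087 to 3789.9 and 5386 to 2682 CPM. They were followed by *Rpl41*, a ribosomal protein gene (10259 and 7929 CPM), and *mt-Co2* (5752 and 3890.2 CPM). The 36 nuclear genes of the respiratory chain had 0 rises and 0 falls and a median log2 ratio of -0.03. When mitochondrial UMIs were left out of the total, the glycolysis ratio was 2.06 and the integrated stress response ratio 2.04. Over cells, glycolysis and mitochondrial UMIs were inversely related within each library (rho -0.54 in d1 and -0.33 in d2), where both shares are parts of 1 fixed total.

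Cholesterol synthesis rose as well, with 9 rises (40.9%) and 1 fall (4.55%) among 22 genes, beside 9.47% and 5.97% of all genes. Its sum was 857 CPM in d1 and 1575 in d2 after 591 in 2i ESC. *Fdps*, which makes farnesyl diphosphate, went from 72.8 to 306 CPM (4.20-fold, 3.89 to 4.54) and *Mvd*, which makes isopentenyl diphosphate, from 21.9 to 75.9 CPM. The fall was *Ebp*, a sterol isomerase, from 34.5 to 13 CPM. Unlike the stress and glycolysis lists, this list had a higher sum at each step from 2i ESC to d2.

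Many epithelial genes rose between the 2 days: 8 of 19 genes of adhesion and epithelium rose (42.1%) and 2 fell (10.5%), beside 9.47% and 5.97% of all genes. The tight junction claudins led, *Cldn7* from 5.36 to 96.5 CPM (18.0-fold, 13.8 to 23.8) and on to 218 in d3, *Cldn6* from 17.9 to 92.8 and *Cldn3* from 1.55 to 14.4 CPM. *Cldn7* had a UMI in 15.4% of d1 cells and 90.0% of d2 cells (9.92% and 86.1% at 1 depth), and in 21.1% of 2i ESC, whose level was 6.74 CPM. *Krt18* and *Krt8*, the keratin pair of simple epithelia, rose from 13.7 to 69.1 and from 3.82 to 15.1 CPM, and *Cd24a* from 29.6 to 139 CPM. The occludin gene *Ocln* had 5 UMIs in d1 and 57 in d2. The falls were *Cdh2* and *Fn1* (fibronectin), the latter from 105 to 36.1 CPM, and *Vim* (vimentin) was just short of the rule at 90.3 and 44.9 CPM. *Epcam* was at 167 and 293 CPM and *Cdh1* (E-cadherin) at 82.7 and 103 CPM. *Zeb1*, a repressor of *Cdh1*, had 23 UMIs in d1 and 4 in d2, too few to be tested by the rule. In its list, of the epithelial to mesenchymal switch, 0 genes rose and 2 fell among 7 tested. The falls were *Cdh2* and the epithelial factor *Grhl2* (log2 ratio -1.01). *Snai1*, *Esrp1* and *Esrp2* of this list had log2 ratios of -0.16, 0.24 and 0.84. Trophoblast cells express keratins and claudins too. The trophoblast marker sums are given above, and their part in these rises was not tested.

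Several of the largest falls of single genes were of noncoding RNAs. *Gm19705*, a noncoding RNA gene (chr1:136670769-136690804, mm10, + strand), was at 8.68 CPM in 2i ESC, 89.2 in d1, 4.84 in d2 and 1.56 in d3, 18.4-fold lower in d2 (14 to 24.7). *Platr3*, a pluripotency-associated transcript (chr2:135648907-135652063, + strand), went from 56.2 CPM in 2i ESC to 289.6 in d1 and 19 in d2, with a UMI in 97.1% and 41.9% of d1 and d2 cells (98.4% and 32.7% at 1 depth) and in 14.2% of EpiSC. *Platr7* (chr10:84547417-84553338, - strand) went from 215 UMIs to 5. *Gm26870* (chr9:3000282-3038313, - strand), which lies at the very start of the assembled chromosome, was at 100.1 and 7.62 CPM. The other large falls were in *C78283*, *Vwa3b*, *Ms4a10*, *Sult6b1*, *Fam25c*, *Sept1*, *Ddc* and *Dusp27*, whose log2 ratios lay between -3.89 and -3.46. *Ddc*, the aromatic amino acid decarboxylase, and *Sept1*, a septin, were at 31.5 and 1.79 and at 116 and 8.87 CPM.

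Among the largest rises not yet named, *Kif1a*, a neuronal kinesin motor, was at 0.114 CPM in 2i ESC, 0.636 in d1 (7 UMIs), 41.1 in d2 and 69.8 in d3, a ratio of 64.6 (31.1 to 162). It had a UMI in 2.50% of d1 cells and 73.4% of d2 cells (1.19% and 61.7% at 1 depth), against 0.441% of 2i ESC. *H2-K1*, a classical MHC class I heavy chain, went from 3.55 to 49.5 CPM after 1.37 in 2i ESC. Reads of this gene may be shared with its paralog *H2-D1*, which went from 3.09 to 24.1 CPM. *Stxbp6*, *Hdgfl3*, *Car14*, *Espn* and *Stk39* had 0.909, 1.45, 1.73, 3.36 and 2.18 CPM in d1 and 17.6, 19.5, 17.5, 31.9 and 20.3 CPM in d2. *Stc2*, a secreted stanniocalcin, rose from 2.36 to 25.6 CPM, and *Ndufa4l2*, a respiratory chain subunit homolog induced by hypoxia, from 1.73 to 22.4 CPM. In absolute terms, the largest rises after *Ldha* were those of abundant genes under the 2-fold rule, *Rpl3* (3069 and 4736 CPM), *Gapdh* (2304 and 3956), *Npm1* (3822 and 5293) and *Hsp90ab1* (3943 and 5281).

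Some genes turned at d1. In d1, 269 of the 10216 genes (2.63%) were at least 2-fold above both 2i ESC and d2, which is 44.1% of the genes that fell, and 179 (1.75%) were at least 2-fold below both, which is 18.5% of those that rose. Each such pattern uses the d1 library in both of its comparisons. The genes lowest at d1 or at d2 were chosen for naming after their values had been seen. Beside *Gm19705*, *Vwa3b*, *Ms4a10* and *Gm26870*, the largest peaks were *Sptbn4* (βIV spectrin) at 3.31, 43.0, 5.56 and 4.33 CPM in 2i ESC, d1, d2 and d3, *Platr5* at 0.343, 26.5, 3.14 and 0.355 CPM, *Mlana* (a melanosome protein) at 1.94, 19.2, 1.61 and 0.213 CPM and *Smtnl1*. All were lower in d2 than in d1 by the rule of this pattern, and all were lower than in d1 in d3 too. In EpiSC *Sptbn4*, *Mlana* and *Platr5* were at 4.70, 0.705 and 1.72 CPM.

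The genes lowest at d1 were led by *Pck2*, *Chac1*, *Ndufa4l2* and *Nupr1*. They were followed by *Aldoc*, a brain form of aldolase, at 18.3, 1.73, 16.8 and 25.2 CPM in 2i ESC, d1, d2 and d3, *Aldh18a1*, which makes proline, at 20.6, 3.27, 21.1 and 21.3 CPM, *Cyba*, a subunit of NADPH oxidase, at 39.2, 6.09, 42.2 and 116 CPM, and *Uap1l1*. Of the lists, 7 integrated stress response genes, 5 serine and one-carbon genes and 4 glycolysis genes had this pattern, beside 1.75% of all genes.

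Turns at d2 were rarer. Of all genes 39 (0.382%) were at least 2-fold above both d1 and d3 in d2, and 26 (0.255%) at least 2-fold below both. *Bnip3*, a mitophagy receptor, had 82.7, 28.3, 157 and 55.0 CPM in 2i ESC, d1, d2 and d3, and *Egln3*, an oxygen sensor, 4.91, 4.09, 17.5 and 7.24 CPM. Both are known targets of hypoxia-inducible factor. No list of its targets was scored. In the glycolysis list *Pdk1* and *Hk2* had log2 ratios of -0.76 and -0.90, while 9 of 20 genes rose. The part of this factor was not tested. *Dusp9*, an X-linked phosphatase of ERK, peaked at 111 CPM between 34.4 in d1 and 32.1 in d3, and the B cell factor gene *Pou2f2*, the clock repressor gene *Ciart*, *Shisa8* and *Tmem54* had their high point at d2 too, with *Tmem54* at 0, 20.4, 60.1 and 23.6 CPM. The genes lowest at d2 included *Klf2*, given above, *Apela*, the ligand of the apelin receptor, at 42.2, 6.72 and 26.7 CPM in d1, d2 and d3, *S100a10* at 120.4, 36.5 and 162 CPM, *S100a6* at 38.9, 7.98 and 22.7 CPM, *Fgfbp1*, which frees FGF from the matrix, at 24.6, 3.41 and 86.8 CPM, and *Txnip*, an inhibitor of glucose uptake, at 17.5, 6.19 and 26.8 CPM. That all of these were above their d2 level in d3 follows from the rule of this pattern.

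**Figure D5:**
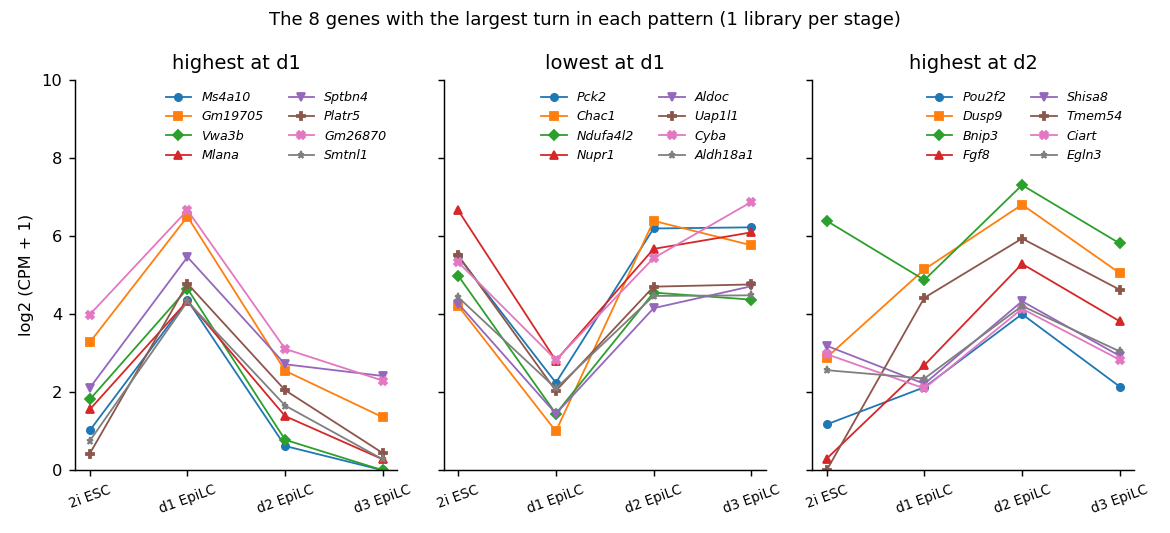
Level of the 8 genes with the largest turn in each of 3 patterns (highest at d1, lowest at d1, highest at d2), as log2 of CPM plus 1 (vertical axes) in 2i ESC and d1, d2 and d3 EpiLC (horizontal axes, 1 library a stage). *Chac1* goes from 17.5 to 1.0 and 82.6 CPM over 2i ESC, d1 and d2, and *Gm19705* from 8.68 to 89.2 and 4.84 CPM.

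The differences were not set by a single chromosome. Over the 19 autosomes the median log2 ratio of d2 over d1 lay between 0.01 and 0.13, the share of genes that rose between 5.02 and 12.2% and the share that fell between 3.89 and 8.92%. On the X chromosome the median was 0.11.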

How the data were processed

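Counts of 1 table of E14Tg2a cells were used. The authors had deposited UMI counts per gene and cell, per the study's methods and the submitters' notes made with Cell Ranger 2.1.0 on mm10 (GRCm38) and aggregated so that the libraries held equal mapped reads per cell, which evens out depth by thinning the deeper libraries. The gene annotation of the counts is not given in the sources used here. The suffix of a barcode named the stage through the key in the study's supplement. The header was broken and 1 barcode had fewer than 16 bases. All columns were mapped and 0 were left unused. Gene symbols came from GENCODE M21 and matched 27722 of 27998 identifiers.

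UMIs were summed over the cells of a library and divided by its total to give CPM. Genes with at least 50 UMIs over d1 and d2 were compared as log2 of CPM plus 1, with a limit of 2-fold and no test, since each stage had 1 library. Levels have exact Poisson intervals, ratios exact conditional intervals and shares Clopper-Pearson intervals. Shares of cells were also taken after thinning each cell to 23341 UMIs, the 10th percentile of the shallower library, which left 252 d1 and 266 d2 cells. Doublets were called with Scrublet in scanpy 1.11.5, and TMM factors came from edgeR 4.0.16 (R 4.3.3). Other steps used Python 3.11.15, numpy 2.4.6, scipy 1.17.1, pandas 2.3.3 and matplotlib 3.10.9, and the scripts were tested on simulated data. Alternatives changed the count minimum, pseudocount, fold, scaling, cell weights, doublets and depth.

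The genes named were the 15 largest rises and falls in log2 ratio with at least 200 UMIs, the 5 largest in CPM, members of the gene lists, up to 8 genes of each transient pattern and the 8 with the highest Fano factor in each library. Those lowest at d1 or d2, and the paralogs, copies and antisense partners of named genes, were named after their values had been seen. The comparison and all lists were chosen with earlier results of these data known. Promoter sequences are those of RefSeq (GRCm38.p6), from the first listed start site of a gene. More elements and gene lists were searched than are shown. Some members of the lists are counted but not reported by name here, and the other data types of the series were not used here.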

Additional observations from a re-analysis of the deposited data

How the results depend on the processing

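The counts of 967 rises and 610 falls were 392 and 332 with a minimum of 200 UMIs, 379 and 338 with a pseudocount of 5 CPM, 2063 and 1317 at 1.5-fold and 361 and 268 at 3-fold, where fewer or more genes can pass by construction. Under the other settings tried they stayed within 1.5 times. TMM scaling put the d2 over d1 ratio of summed levels at 0.2504 for the naive factors, 0.954 for the formative factors (reversed from 1.03), 0.375, 1.04, 1.12 and 0.590 for the study's ESC, EpiLC, EpiSC and PGCLC genes, 1.92 for the integrated stress response, 1.94 for glycolysis, 1.70 for cholesterol synthesis and 0.586 for mitochondrially encoded genes. The median of members in place of the sum gave, in the same order, 0.243, 0.821 (reversed), 0.539, 1.68, 1.27, 0.785, 3.10, 1.94, 1.54 and 0.582. Leaving mitochondrial UMIs out of the total, a setting chosen after seeing the data, as were all settings for the last 4 lists, gave 1.01 for the formative factors, 0.398, 1.10, 1.19 and 0.627 for the study's ESC, EpiLC, EpiSC and PGCLC genes and 2.06 for glycolysis. Equal weight per cell gave 1.10 for the EpiLC genes, 2.07 for glycolysis and 0.664 for mitochondrial genes, and thinning gave 2.13 and 0.642 for the last 2. The share of d1 cells above every d2 cell in naive UMIs was 1.19% after thinning and 43.9% with the 99th percentile of d2 as the limit. Beyond the construction of each setting, the cause was not tested. Of the genes named in the text 203 were followed through these settings, and 145 of them were past the 2-fold rule. Of these 145, 141 remained so with equal weight per cell, 139 with TMM scaling, 142 without called doublets and 138 after thinning, and 0 changed direction. Those lost were *Bmpr2*, *Mael*, *Smad1*, *Spry1*, *Sycp3* and *Zcwpw1* with TMM scaling, *Bmpr2*, *Grhl2*, *Sycp3* and *mt-Cytb* with equal weight, *Grhl2*, *Mael* and *Smad1* without doublets, and *Cdh2*, *Cdkn1b*, *Lin28b*, *Smad1*, *Sycp3*, *Tsix* and *mt-Cytb* after thinning.

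No paired analysis was possible because each stage had 1 library. For the same reason no library was left out, and differences between 2 cultures of 1 stage are unknown. Depth limits genes with few UMIs, for which counting intervals span several-fold, and a count of 0 still allows about 0.273 CPM.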

Other observations

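Imprinted genes, which are read from 1 parental copy, included 5 rises (25%) and 0 falls among 20 tested, beside 9.47% and 5.97% of all genes. Their sum was 1422 CPM in d1 and 2077 in d2. *Phlda2*, which limits placental growth, went from 27.9 to 146 CPM and *Grb10*, an inhibitor of insulin receptor signals, from 5.82 to 37.9 CPM. The paternally expressed *Dlk1* had 6 UMIs in d1 and 59 in d2. *Igf2r* and *Ndn* rose from 2.82 to 8.25 and from 1.82 to 5.20 CPM. The noncoding *Meg3*, at 485 and 900.3 CPM, was short of the 2-fold rule (log2 ratio 0.89).

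Genes of p53 and of the cell cycle are given beside shares of 9.47% and 5.97% of all genes that rose and fell. Of 14 p53 targets 2 fell and 0 rose (14.3% lower, median log2 ratio -0.57), and 247 of 280 d1 cells had a larger share of UMIs on them than the median d2 cell, with *Mdm2*, the p53 ubiquitin ligase, at 94.8 and 41.1 CPM and *Eda2r* at 13.5 and 3.94 CPM. *Cdkn1a* (p21) lay just inside the limit, at 92.0 and 45.5 CPM. Of 16 G1 cyclins and CDK regulators 4 fell (25%), among them *Ccnd3* (159.9 and 76.5 CPM) and *Rb1* (9.82 and 3.41), and *Cdkn1b* (p27) rose from 23 to 68 UMIs. The S phase list had 1 fall, of the chromatin remodeler *Hells* (636 and 283 CPM), and the list of G2 and mitosis 0 rises and 0 falls among 20. The S phase sum was 2750 CPM in d1 and 2227 in d2. In share of UMIs, 224 of 280 d1 cells lay above the median d2 cell for S phase and 155 for G2 and mitosis. No cell cycle phase was called.

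Among stress genes outside the integrated stress response, *Atf3* and *Jun* rose from 11 to 115 and from 33 to 140 UMIs, and *Hsph1*, *Zfp36* and *Egr1* fell. In d3 EpiLC *Atf3* and *Jun* were at 75.3 and 145 CPM. Genes of 2-cell-like cells summed to 0.273 CPM in d1 and 1.25 in d2, with at least 3 markers in 1 d2 cell, and Hox genes to 5.0 and 1.52 CPM.

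Variation among cells was read from the Fano factor (variance over mean) of UMIs thinned to 1 depth, in genes with a mean of at least 0.5. Its median was 1.17 over 4352 genes in d1 and 1.11 over 4450 in d2, and 144 and 62 genes were at 3 or above. The highest values were mostly those of abundant genes: *Malat1* had 20.4 in d1 and 26.2 in d2, *mt-Atp6* 23.6 and 11.9, the metallothionein genes *Mt1* and *Mt2* 17.0 and 13.5 in d2, and *Hspa8* and *Actg1* 12.9 and 14.3 in d2. *Rpl41* and *Eef1a1* went from 16.6 to 5.51 and from 14.6 to 4.07. *Ftl1-ps1*, with 16.6 and 21.4, is annotated as a copy of *Ftl1*, and its 10103 CPM in d1 may hold reads of *Ftl1*, which had 141. *Gm26870* (13.9) was high in d1 for its mean of 2.50 UMIs. *Xist*, the noncoding RNA of X inactivation, which was not examined in this male line, had 3.42 in d1 and 12.3 in d2. Its 434 UMIs in d2 came from 14.2% of cells, against 319 UMIs from 42.5% of cells in d1. The overlapping antisense gene *Tsix* was at 23.5 and 10.7 CPM, and reads of the pair may have been confused, since the use of strand in counting is not given in the sources used here.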
